A study of Mus musculus with 14 samples.

Results

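Immediate early transcription factors are encoded by genes whose transcripts appear within minutes of a stimulus, without new protein being made first. The group described here has 10 genes, *Fos*, *Fosb*, *Fosl2*, *Jun*, *Junb*, *Jund*, *Egr1*, *Egr3*, *Atf3* and *Ier2*, out of 28316 gene symbols in the retinal count matrix and 26528 in that of the brain. They were chosen by name as members of this class, with no measured value in the rule but with earlier results of these data known. All 10 are in both matrices. For each gene, the unique molecular identifiers (UMIs, counted transcripts) of all nuclei with 1 cell type label in 1 library were summed and divided by all UMIs of those nuclei, as CPM, the gene's counts scaled to a total of 1e6.

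The study followed mice in which the TGF-beta receptor gene *Tgfbr1* was deleted from vascular endothelial cells (ECs), and asked how the retina and the brain vasculature respond. Nuclei of whole retinas gave 1 control and 11 knockout libraries, and nuclei of brain vascular fragments, pooled from 2 brains per library, gave 1 library of each genotype. Knockout mice were *Cdh5CreER;Tgfbr1 CKO/-* (CKO), in which an EC promoter drives a tamoxifen-activated Cre, and were given 4-hydroxytamoxifen between postnatal days 3 and 5. Control mice are labelled wild type, the paper describing them as phenotypically wild type and typically *Cdh5CreER;Tgfbr1 CKO/+*, and the labels list no 4-hydroxytamoxifen dose for them. All were at postnatal day 14 by the paper, while the labels say young adult. How many mice stand behind each retinal library is not stated.

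*Tgfbr1* itself was at 89.0 CPM in the control retina, counted over all its nuclei, and at 71.4, 74.8, 78.5, 365, 76.2, 77.0, 80.3, 85.9, 79.4, 82.5 and 87.0 CPM in CKO replicates 1 to 11. The high value is that of replicate 4, which has 33 *Tgfbr1* UMIs in 104 nuclei. In brain ECs it was at 69.1 CPM in the control and 62.9 CPM in the CKO library. Counts near the 3′ end of a transcript do not show whether the floxed part is gone, and the retinal labels hold no ECs, so these values test neither the deletion nor the labels of the libraries.

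Immediate early factors act mostly as DNA-binding partners: FOS and JUN proteins pair into the AP-1 dimer, EGR proteins bind GC-rich sites through zinc fingers, and ATF3 is a stress-induced member of the wider AP-1 and CREB family. Their genes are switched on by calcium, growth factors, cytokines, mechanical stretch and injury, through kinases that act on serum response factor and CREB at the promoter. In the retina, light and injury raise them, with Müller glia and neurons as classic sites. Tissue dissociation can raise them as well.

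The control retina held 30989702 UMIs and 1595 UMIs in the median nucleus. CKO replicates 1 to 11 held 31506779, 11967863, 12864074, 90449, 55803724, 13748577, 14624822, 19238751, 30111296, 16443337 and 20149672 UMIs. The brain libraries held 49798325 UMIs for the control and 31033373 for the CKO. Of the 66 pairs of retinal libraries, none shared more than 2 nucleus barcodes, and the brain pair shared 2. The authors had also removed by hand whole clusters in which several nuclei came from CKO replicates 4 and 5, which make up batch 2. CKO replicate 4 entered only the retinal cell types in which it had at least 20 nuclei, the limit set for every library.

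The retinal labels were set against fixed lists of marker genes, summed over all libraries. Rods, cones, rod bipolar cells (RBCs), cone bipolar cells (CBCs), GABAergic and glycinergic amacrine cells, horizontal cells (HCs), retinal ganglion cells (RGCs) and immune cells each had the highest level of their own list. The Müller glia (MG) list was at 3333 CPM in MG and at 3567 CPM in astrocytes. No retinal label stands for ECs, and the endothelial list was highest in MG, at 1333 CPM, led there by *Flt1*. In the brain, ECs, vascular smooth muscle cells (vSMCs), pericytes and astrocytes were each the highest cell type for their own list, and cluster CP_8 for that of the choroid plexus. The brain cells labelled glia led the fibroblast list, at 4273 CPM, so they are named below by their label only.

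Levels of the AP-1 genes differed between retinal cell types. *Fos*, the inducible partner of the JUN proteins, had its highest CKO median in MG, at 23.0 CPM (range over 10 libraries 2.37 to 38.95), ahead of astrocytes at 19.3 CPM (11.2 to 36.1, 4 libraries) and cones at 11.0 CPM (0 to 18.2). Glycinergic amacrine cells, RBCs, HCs, rods, GABAergic amacrine cells, CBCs and RGCs came next, from 8.70 down to 4.82 CPM, and immune cells last at 1.93 CPM. Each neighbouring pair in that order overlapped. *Jun*, the main DNA-binding partner of FOS, was at 105 CPM in astrocytes (72.2 to 197), and this range did not reach that of MG, at 36.3 CPM (8.59 to 61.5). Every later neighbour overlapped, from immune cells at 16.0 CPM down to RBCs at 4.68 CPM. Astrocytes also had the highest medians of *Junb*, at 20.6 CPM, of *Jund*, at 30.6 CPM, and of *Ier2*, at 4.66 CPM, with overlap to the next cell type each time. Their levels rest on 4 CKO libraries, since the control holds 12 astrocyte nuclei and was not used for them.

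The remaining factors had other leading cell types. *Egr1*, a zinc finger activator, was at 14.6 CPM in MG (1.99 to 25.1) and 14.4 CPM in cones (4.54 to 24.9), with the other cell types following down to astrocytes at 3.33 CPM, and all neighbours overlapped. *Egr3*, a close relative that EGR1 can induce, was highest in MG at 3.70 CPM (0 to 17.9). *Atf3* stood out by cell type, with a median of 21.3 CPM (0 to 65.4) in immune cells against 2.34 CPM (1.04 to 4.01) in rods, the next in order, although those ranges overlapped as well.

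**Figure D1:**
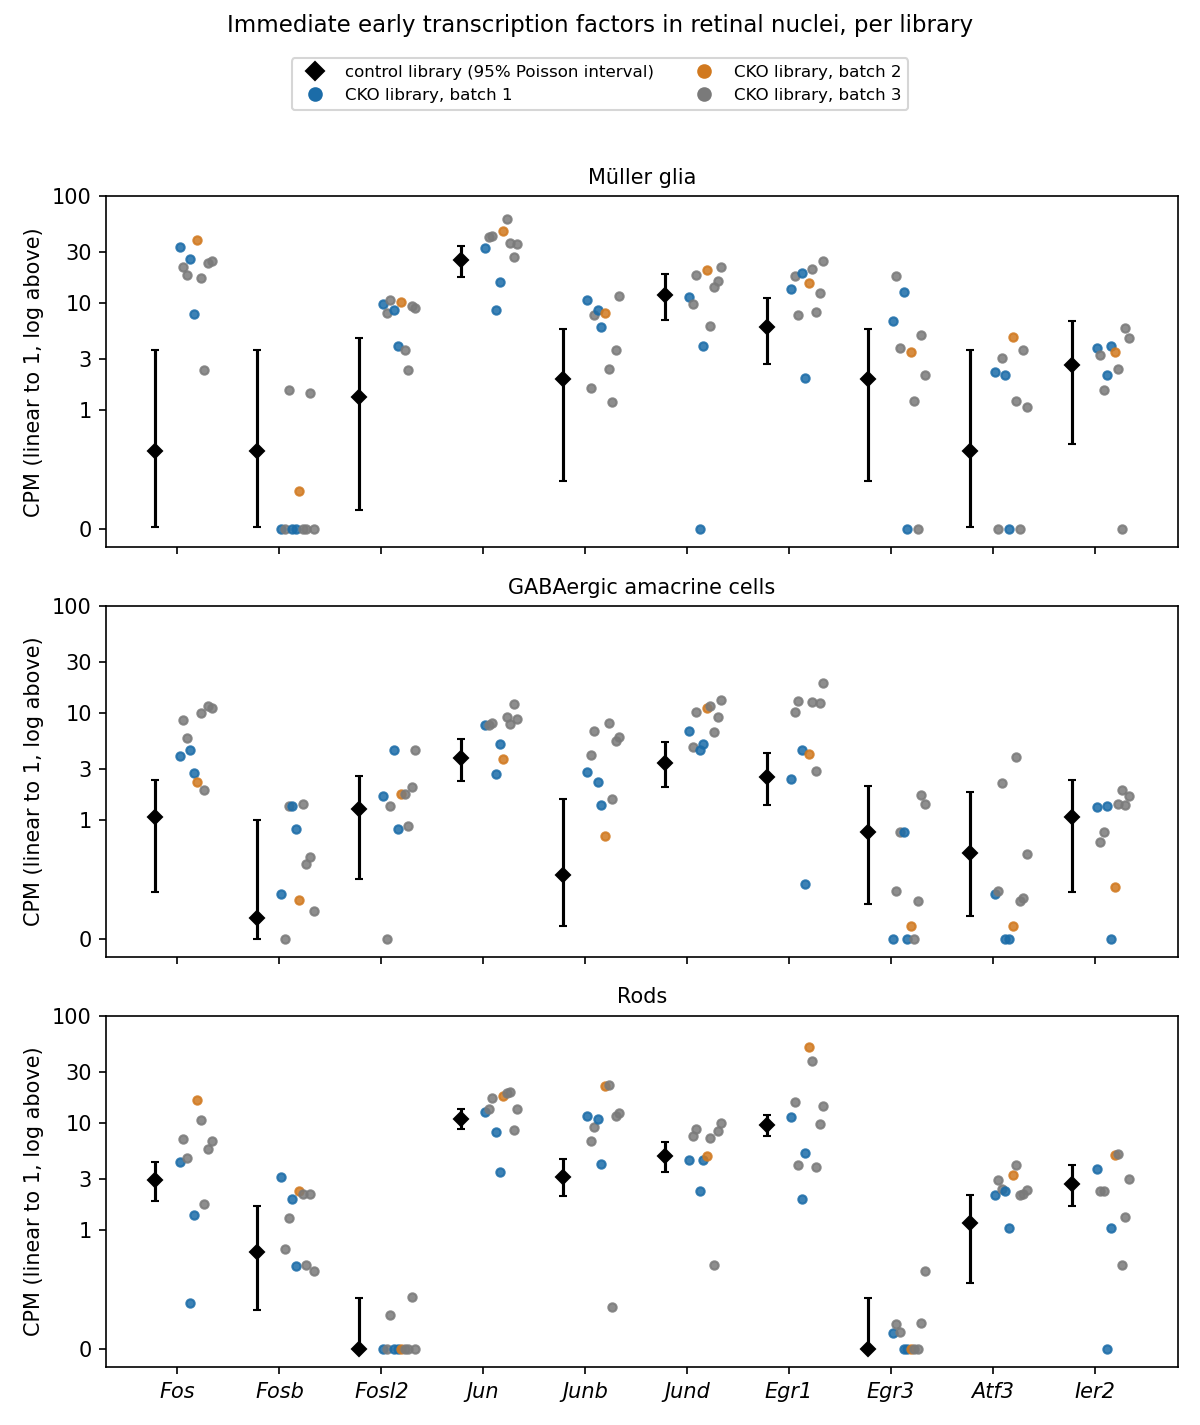
CPM of each of the 10 genes (linear to 1 and logarithmic above) in Müller glia, GABAergic amacrine cells and rods, with the control library as a diamond with its 95% Poisson interval and each CKO library as a point coloured by batch. In Müller glia, *Fos* is at 0.662 CPM in the control and between 2.37 and 38.95 CPM in the CKO libraries.

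Control and CKO retinas were compared over libraries with edgeR, in the 10 cell types where the control and at least 3 CKO libraries had enough nuclei. The p-values measure the spread between libraries, and the model takes the spread of the lone control from that among CKO libraries. Enough counts for a test were present in 52 combinations of member and cell type: 8 genes in rods, 7 each in MG and GABAergic amacrine cells, 6 in glycinergic amacrine cells, 5 each in CBCs, RBCs and HCs, 4 each in cones and RGCs, and 1 in immune cells. At an adjusted p of 0.05, edgeR called 0 of the 52, with 3 at an unadjusted p under 0.05, and DESeq2 also called 0, with 3 under 0.05. Of all 116114 combinations of gene and cell type, edgeR had 3.62% at an unadjusted p under 0.05 and called 14, while DESeq2 called 151, or 0.13%. By cell type, the edgeR test called 0.00717% of genes in CBCs, 0.0216% in cones, 0.00711% in GABAergic amacrine cells, 0.0229% in glycinergic amacrine cells, 0.0323% in MG, 0.00897% in RBCs, 0.015% in rods, and 0% in HCs, immune cells and RGCs. The 3 members under an unadjusted 0.05 were *Fos* and *Fosl2* in MG and *Fos* in GABAergic amacrine cells.

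In MG, 1 *Fos* UMI in 1511111 put the control at 0.662 CPM (95% Poisson interval 0.0168 to 3.69). The lowest, median and highest of the 10 CKO libraries were 2.37, 23.0 and 38.95 CPM. Replicate 7 was the low one, with 2 UMIs, and every CKO library lay above the control value, though replicate 7 lay within its counting interval. Batch 1, which held the control, gave 33.5, 25.8 and 7.97 CPM in CKO replicates 1, 2 and 3, also above the control. The log2 fold change was 4.91 ± 1.32 (SE; p = 0.00177, adjusted p = 0.324, edgeR), and it was 4.85 within batch 1. Over 22 alternative settings it lay between 4.54 and 5.15 with an adjusted p of 0.0290 to 0.608, and the call was made at the lowest of these, with no filter on low counts.

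*Fosl2*, whose protein FRA2 is a slower and more lasting AP-1 subunit, was at 1.32 CPM (2 UMIs) in control MG and at 2.37, 8.82 and 10.8 CPM as the lowest, median and highest CKO values. CKO replicates 1 to 3 were at 9.89, 8.59 and 3.98 CPM, and no CKO library reached down to the control value. The control's counting interval, 0.160 to 4.78 CPM, did include CKO replicates 3, 6 and 7. Its log2 fold change was 2.30 ± 0.92 (SE; p = 0.0232, adjusted p = 0.586, edgeR), between 2.03 and 2.47 over the settings that could be fitted, with an adjusted p of 0.312 to 0.779. *Fosb*, which encodes another inducible FOS protein, had 1 UMI in control MG and 5 in all CKO MG together, and was too sparse to test.

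In 5 combinations the control lay below every CKO library, 2 of them in MG. For all genes tested in MG this pattern was seen in 9.61%, in GABAergic amacrine cells in 6.05%, and over the 10 cell types together in 7.18%. Among the members it was seen in 5 of 52 combinations, against 0 in which the control lay above every CKO library, a pattern seen in 4.25% of all genes. The 5 were *Fos* and *Fosl2* in MG and *Fos*, *Junb* and *Jund* in GABAergic amacrine cells, so 2 of 7 and 3 of 7 members separated there, while the count over the 10 cell types is near the background.

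The markers of MG did not separate the genotypes. The MG list (5 of 5 genes present, *Slc1a3* leading) was at 3342 CPM in control MG and at 2548 to 3583 CPM over the CKO libraries in use. The endothelial list was at 1292 CPM in control MG, with 7 of 9 genes present, *Flt1* leading at 924 CPM and *Cldn5* and *Cdh5* at 0. In CKO MG it ran from 1094 to 1747 CPM. The immune list was at 26.5 CPM in control MG, led by *P2ry12* with *C1qa* and *Tmem119* at 0, and between 17.6 and 45.8 CPM in CKO MG. Median depth differed more, from 1824 to 8948 UMIs per CKO nucleus against 3172 in the control, and its part in the *Fos* values was not tested.

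When each nucleus was thinned to 500 UMIs, 0 of 396 control MG had a *Fos* UMI, which allows a share of up to 0.927% (exact binomial), against 31 of 2478 CKO MG. The CKO share had a median of 1.29% over libraries and reached 2.5%. Most MG therefore had no *Fos* UMI at this depth in either genotype. Among rods of the control, in the same thinned counts, 7 of 5760 had a *Fos* UMI.

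GABAergic amacrine cells, which release GABA onto bipolar and ganglion cells, showed the separation for *Fos* at a lower level. The control was at 1.08 CPM (6 UMIs) and the CKO libraries at 1.91, 5.18 and 11.7 CPM (lowest, median, highest). The log2 fold change was 1.86 ± 0.86 (SE; p = 0.0496, adjusted p close to 1.00, edgeR), and 1.76 within batch 1. Rods had 2.91 CPM of *Fos* in the control against 0.389, 5.22 and 16.5 CPM, with 7 of 10 CKO libraries above the control. In RBCs 9 of 10, in CBCs and glycinergic amacrine cells 8 of 10, in RGCs 8 of 11, in cones 7 of 10 and in HCs 6 of 10 CKO libraries were above the control for *Fos*, and the genotypes overlapped in each.

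The JUN genes were compared in the same way, and whether they differ from *Fos* was not tested. In MG, *Jun* was at 25.1 CPM in the control and at 8.59, 36.3 and 61.5 CPM in the CKO, with 8 of 10 libraries above. Its lowest value was that of replicate 2, in the control's own batch, where only 1 of 3 CKO libraries was above the control. *Jund*, the JUN gene that is expressed without a stimulus, was at 11.9 CPM in control MG against 0, 12.8 and 21.9 CPM, with 5 of 10 libraries on each side. *Junb*, whose protein is a weaker activator than JUN, was at 1.99 CPM (3 UMIs) against 1.19, 6.84 and 11.7 CPM, with 8 of 10 libraries above. All 3 therefore overlapped between the genotypes in MG.

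In GABAergic amacrine cells, the library values of *Junb* and *Jund* did not overlap. *Junb* was at 0.541 CPM (3 UMIs) in the control and at 0.870, 3.45 and 8.16 CPM in the CKO, with a log2 fold change of 2.23 ± 1.15 (SE; p = 0.0730, edgeR). *Jund* was at 3.43 CPM (19 UMIs) against 4.51, 8.04 and 13.4 CPM, with 1.19 ± 0.57 (SE; p = 0.0570, edgeR). Both had adjusted p-values close to 1.00. The lowest CKO values lay within the control's counting intervals, 0.112 to 1.58 CPM for *Junb* and 2.06 to 5.35 CPM for *Jund*, as did that of *Fos* in these cells (0.397 to 2.35 CPM). *Jund* was at 0.70 within batch 1, where the lowest CKO value was also the lowest of all, and *Junb* at 1.99. Without CKO replicate 6, *Junb* fell to 1.60 and *Fos* to 1.43.

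Rods gave the deepest *Junb* counts. The control had 27 UMIs, or 3.14 CPM, and the CKO libraries were at 0.352, 11.2 and 22.6 CPM, with 9 of 10 above the control. Replicate 7 was the exception, far below the control, and replicates 1 to 3 were at 11.6, 10.9 and 4.17 CPM. The log2 fold change was 2.03 ± 1.24 (SE; p = 0.125, edgeR). *Jun* in rods was at 10.9 CPM against 3.48, 13.5 and 19.4 CPM, and *Jund* at 4.88 CPM against 0.704, 6.08 and 10.0 CPM. Those ranges included the control value.

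*Egr1* varied widely between CKO libraries. In rods, the control was at 9.53 CPM (82 UMIs) and the CKO libraries at 1.95, 10.7 and 50.7 CPM, with replicates 5 and 6 at 50.7 and 38.3 CPM far above the rest. CKO libraries lay above the control in 6 of 10 cases in rods and in 9 of 10 in MG, where the control was at 5.96 CPM and the CKO at 1.99, 14.6 and 25.1 CPM. In GABAergic amacrine cells the control was at 2.52 CPM and the CKO at 0.464, 7.34 and 19.3 CPM, with the 3 libraries of batch 1 at 0.464, 2.45 and 4.51 CPM around the control value. *Egr3* was at 1.99 CPM in control MG against 0, 3.70 and 17.9 CPM, with replicate 10 highest and 7 of 10 above. *Egr3* was tested in MG only, and neither gene separated the genotypes where it was tested.

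*Atf3*, a repressor and activator induced by stress, was at 1.16 CPM in control rods against 1.04, 2.34 and 4.01 CPM, with 9 of 10 CKO libraries above. In glycinergic amacrine cells it had 0 UMIs in the control, where 3 counts would be 0.848 CPM, against 0.472, 0.922 and 1.97 CPM in the CKO, so the limit of the control lies among the CKO values. In immune cells the control had 0 *Atf3* UMIs in 29 nuclei and 8 of 10 CKO libraries had some, which is not a difference that this depth can show. In the paper, the immune cells other than microglia come from CKO retinas, so this label holds different cells in each genotype. *Ier2*, which encodes a short-lived nuclear protein that regulates transcription, was at 2.67 CPM in control rods against 0, 2.30 and 5.10 CPM, with 4 of 10 above, and at 2.65 CPM in control MG against 0, 3.40 and 5.82 CPM, with 6 of 10 above.

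Most fitted values were positive, a lean not seen with the batch as a covariate or within batch 1. The log2 fold change was positive in 44 of the 52 combinations, or 84.6%, against 51.0% of all genes tested. With the batch as a covariate it was positive in 27 of 52, or 51.9%, against 51.1% of all genes. Within batch 1 alone, where 39 combinations were tested, it was positive in 21, or 53.8%, against 51.1% of all genes. Batches 2 and 3 hold CKO libraries only, so in these libraries batch and genotype cannot be told apart. In 16 of the 52 combinations CKO replicate 3 was the lowest CKO library, replicate 2 in 14 and replicate 7 in 11. Replicate 6 was the highest in 14, replicate 9 in 12 and replicate 5 in 9.

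The summed level of all 10 genes over all nuclei showed the same spread. It was 28.2 CPM in the control and 44.5, 29.3, 20.4, 44.2, 73.5, 72.9, 28.3, 56.4, 65.7, 54.7 and 56.7 CPM in CKO replicates 1 to 11, where replicate 4 has 4 UMIs in all. Replicate 3 lay below the control, and replicates 2 and 7 close to it. In MG the sum was 52.9 CPM in the control against 43.8, 116 and 153 CPM (lowest, median, highest), with 9 of 10 libraries above. In GABAergic amacrine cells it was 15.5 CPM against 16.7, 32.3 and 67.2 CPM, with no overlap, and in rods 36.0 CPM against 21.5, 52.0 and 123 CPM, with 7 of 10 above.

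**Figure D2:**
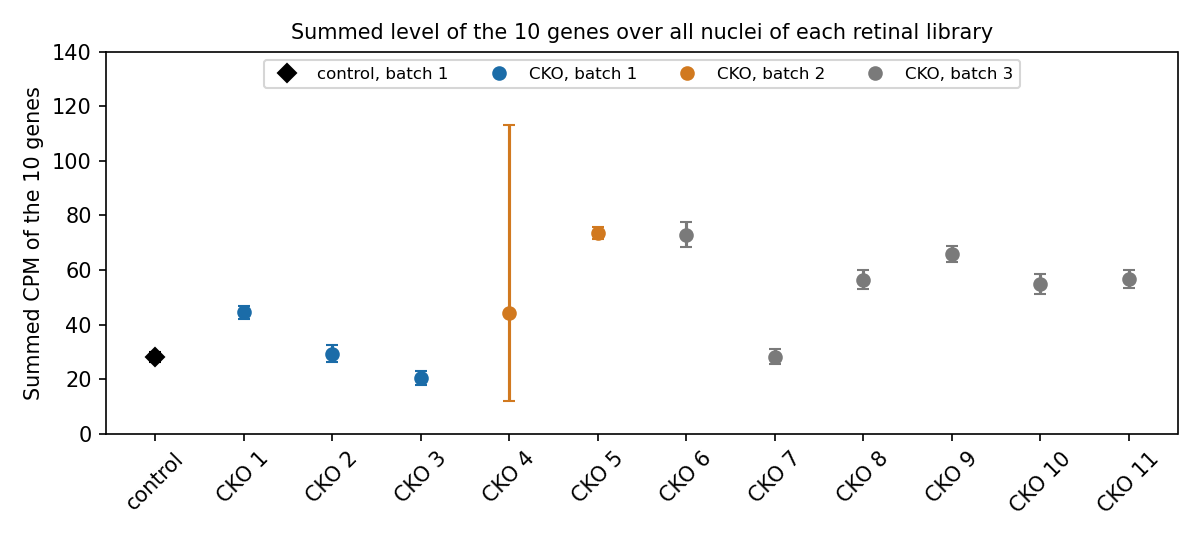
Summed CPM of the 10 genes over all nuclei of each retinal library, with 95% Poisson intervals, coloured by batch. The control is at 28.2 CPM, the 3 CKO libraries of its batch are between 20.4 and 44.5 CPM, and replicates 5 and 6 are highest at 73.5 and 72.9 CPM.

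The genes were also followed over 114 sums of cell type and library, with each cell type centred on its own mean. Over these sums the gene most like *Fos* was *Noct* (Pearson's r of 0.63 across 11 cell types), followed by *Etv6* at 0.62, *Egr1* at 0.61, *Wdpcp* at 0.58 and *Junb* at 0.58. The genes most like *Egr1* were *Fos* at 0.61, *Nr4a1* at 0.54, *Crx* at 0.53, *Igsf21* at 0.52 and *Tbc1d12* at 0.52. *Fos* thus varied with *Egr1* and *Junb*, and far less with *Jun* at 0.21, *Ier2* at 0.18 and *Jund* at 0.07. The sums share libraries, depth and batch, so these values describe the libraries.

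Wider lists placed the members among other fast responders. Of 53 further immediate early genes, 275 combinations with a retinal cell type were tested and edgeR called 0, with 24 at an unadjusted p under 0.05 and 63.6% positive. AP-1 partners and repressors (142 combinations, 50.7% positive), upstream kinases and factors such as SRF and CREB (196, 52.0%) and heat shock genes (96, 55.2%) also had 0 calls, with 3, 8 and 10 at an unadjusted p under 0.05. In MG, 37 of the 53 wider genes were tested, with a median log2 fold change of 1.03 and 35 positive, beside a median of 1.15 for the 7 members and 0.02 for all 12371 genes. The smallest adjusted p among them was 0.0626, for *Ccn1* (log2 fold change 3.10 ± 0.55 SE, edgeR), which encodes a matrix protein induced by stretch and growth factors and is named here after its value was seen. All these list values come from the fit without the batch as covariate, and whether the lean of the wider list holds within batch 1 was not tested.

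The brain data add ECs, the cells in which *Tgfbr1* was targeted, but with 1 library per genotype no difference has a replicate check, and intervals cover counting error only. In the control library the EC level of *Jun*, 165 CPM, lay above that of every other cell type, the next being CP_6 at 95.4 CPM, with no overlap of counting intervals. *Ier2* was likewise highest in ECs, at 104 CPM, before vSMCs at 60.1 CPM, and *Atf3*, at 9.48 CPM, before CP_6 at 3.64 CPM, without overlap to that next cell type. The pericyte intervals, which rest on few UMIs, reached those of ECs for both genes, and for *Atf3* that of GABA_22 did too. Microglia, with 11 CKO nuclei, were left out of this order. In their 129 control nuclei the *Atf3* interval, 0 to 46.2 CPM, reached that of ECs as well. *Fosl2*, at 28.6 CPM, and *Junb*, at 56.5 CPM, also had their highest control level in ECs, with overlap to vSMCs and pericytes as the next. *Fos*, at 19.0 CPM and with overlap to vSMCs, and *Jund*, *Egr1* and *Egr3*, at 233, 252 and 66.4 CPM and without overlap to the next, were highest in cluster Glut_20.

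Many brain levels were 0. Of 20 cell types, vessel cells included, 14 had no *Atf3* UMI in either library, 13 no *Ier2*, 8 no *Jund*, 7 no *Jun*, 6 each no *Fosb*, *Fosl2* and *Egr3*, 4 each no *Fos* and *Junb* and 3 no *Egr1*. The counts had had background RNA subtracted before they were deposited, so a 0 is a value after that step. Brain astrocytes had 4 control and 5 CKO *Jun* UMIs, or 2.94 and 9.89 CPM, against a retinal astrocyte median of 105 CPM. The preparations differ between the tissues, and this difference was not tested.

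In ECs the FOS genes lay higher in the CKO library. *Fos* was at 2.41 CPM in the control (14 UMIs) and 5.55 CPM in the CKO (38 UMIs), a ratio of 2.30 (95% interval 1.22 to 4.59, exact conditional binomial). *Fosl2* was at 28.6 and 43.9 CPM, a ratio of 1.54 (1.27 to 1.87). *Fosb*, with 2 and 9 UMIs, had a ratio of 3.81 whose interval reached from 0.789 to 36.2. With each nucleus given equal weight in place of its depth, the *Fos* ratio was 6.09 and that of *Fosl2* 1.23. Of nuclei thinned to 500 UMIs, 1 of 2059 control and 8 of 2601 CKO ECs had a *Fos* UMI, with overlapping intervals, while the *Fosl2* share was alike, at 2.09% (1.52 to 2.80, exact binomial) and 2.15% (1.63 to 2.79).

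The JUN genes lay slightly lower in CKO ECs. *Jun* was at 165 and 139 CPM, a ratio of 0.841 (0.768 to 0.920). *Junb* was at 56.5 and 44.2 CPM, a ratio of 0.782 (0.667 to 0.917), and *Jund* at 108 and 95.2 CPM, a ratio of 0.885 (0.792 to 0.989). *Fos* and *Fosl2* thus had ratios on the other side of 1 from the JUN genes in the same nuclei, and so they did in each of 4 alternative settings, where *Jun* ran from 0.782 to 0.846, *Junb* from 0.728 to 0.818 and *Jund* from 0.823 to 0.945. *Ier2* stood with them, at 104 and 93.3 CPM, a ratio of 0.900 (0.804 to 1.01).

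The EGR genes and *Atf3* lay higher. *Egr3* went from 12 to 84 UMIs, or from 2.07 to 12.3 CPM, a ratio of 5.93 (3.22 to 11.9), which became 14.9 with nuclei weighted equally. *Egr1* was at 38.4 and 54.3 CPM, a ratio of 1.41 (1.19 to 1.68), which became 2.06 in the same way. *Atf3* was at 9.48 and 13.9 CPM, a ratio of 1.46 (1.04 to 2.08). Of nuclei thinned to 500 UMIs, 1.46% of control ECs (0.985 to 2.07, exact binomial) and 3.08% of CKO ECs (2.45 to 3.81) had an *Egr1* UMI, and 1 of 2059 and 14 of 2601 an *Egr3* UMI. The share with an *Atf3* UMI went the other way from its ratio, at 0.826% (0.482 to 1.32) and 0.577% (0.323 to 0.949), with overlapping intervals. Oligodendrocytes had 0 of 590 and 0 of 594 for *Egr1* and *Egr3*, in counts from which background RNA had been subtracted, so these 0s are no check on the EC shares. Median depth was 1347 and 1491 UMIs in control and CKO ECs, and 2328 and 955 in oligodendrocytes.

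At a ratio of at least 2, *Fos* and *Egr3* were the 2 of 9 members with at least 20 UMIs in ECs that lay higher, where 11.2% of all genes did, and 0 of 9 lay lower by that measure, where 5.79% did. The median log2 ratio was 0.50 for the 9 members and 0.14 for all genes. Scaling by TMM shifted each log2 ratio in ECs by -0.10. The summed level of the 10 genes was 514 CPM in control and 503 CPM in CKO ECs. The endothelial list was at 12922 and 10090 CPM in control and CKO ECs (9 of 9 genes, *Flt1* leading) and the pericyte list at 8400 and 7157 CPM (8 of 8, *Rgs5* leading). The choroid plexus list was at 1120 and 476 CPM (4 of 4, *Ttr* leading). More pericyte than endothelial UMIs were found in 19.2% of control and 21.2% of CKO EC nuclei, and the part of these marker differences in the ratios was not tested.

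Of 44 measured genes of the wider list, 4 lay at least 2-fold higher in ECs and 2 lower, with a median ratio of 1.02. Beside the 11.2% and 5.79% of all genes, these counts are near the background. The highest were *Nfil3*, a repressor of the bZIP family, at 5 and 66 UMIs (ratio 11.2, 4.56 to 35.6), *Dusp5* at 2.54, *Nr4a1*, an orphan nuclear receptor, at 2.51 (1.80 to 3.54) and *Plk2* at 2.07. The lowest were *Klf4*, a flow-responsive factor of ECs, at 0.463 (0.425 to 0.505), *Gadd45b* at 0.467 and *Maff* at 0.557. AP-1 partners (19 measured) had 0 genes past 2-fold either way, and upstream regulators had 1 of 22 higher, with *Camk4* lowest at 0.504. Of 13 heat shock genes 1 lay higher, *Hspa1b*, with 1 and 22 UMIs and a ratio of 18.6 (3.01 to 769), and *Hspb1* was lowest at 0.504.

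**Figure D3:**
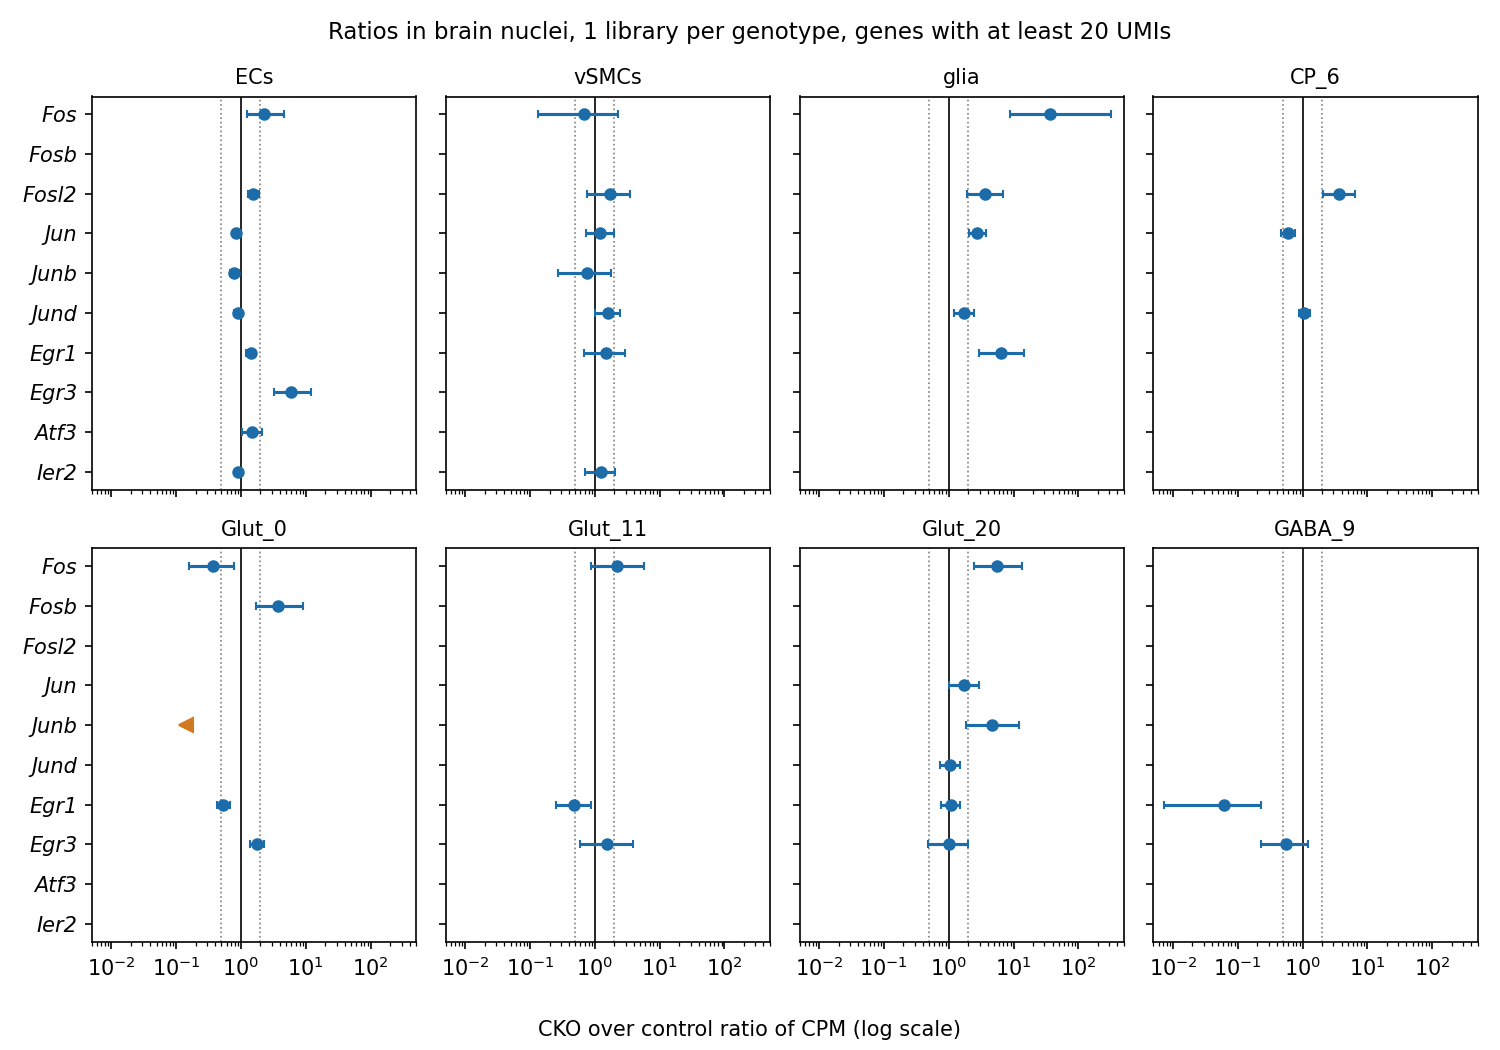
CKO over control ratio of CPM (log scale) with its 95% interval for each gene with at least 20 UMIs over both libraries, in 8 brain cell types, with dotted lines at 0.5 and 2 and a triangle at the upper bound where the CKO library has 0 UMIs. In ECs *Egr3* is highest at 5.93, in the cells labelled glia *Fos* is highest at 36.4, and in cluster GABA_9 *Egr1* is at 0.0607.

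In vSMCs 0 of 7 measured members were past 2-fold, where 4.7% of all genes lay higher and 8.82% lower. *Fosl2* had a ratio of 1.71 (0.755 to 3.53), *Egr1* of 1.46 (0.683 to 2.87) and *Junb* of 0.764 (0.267 to 1.79), on the same side of 1 as in ECs. *Fos*, with 26 and 3 UMIs and a ratio of 0.691 (0.134 to 2.25), *Jun* at 1.22 (0.725 to 1.97), *Jund* at 1.60 (1.01 to 2.44) and *Ier2* at 1.22 (0.705 to 2.02) lay on the other side. The CKO library held 103 vSMC nuclei against 449 in the control, so these intervals are wide. The fibroblast list in vSMCs was at 2074 and 4091 CPM (5 of 5 genes, *Col1a2* leading), the choroid plexus list at 4444 and 2044 CPM (4 of 4, *Ttr* leading) and the smooth muscle list at 5006 and 4506 CPM (4 of 4, *Acta2* leading). The endothelial list, at 5804 and 6073 CPM (9 of 9, *Ptprb* leading), and the pericyte list, at 6647 and 6352 CPM (8 of 8, *Rgs5* leading), lay above the smooth muscle list in these cells. The part of these lists in the ratios was not tested. Whether vSMCs and ECs differ was not tested, and pericytes had 0 members with at least 20 UMIs.

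Cells labelled glia had the widest differences in the brain. *Fos* had 2 control and 21 CKO UMIs, at 1.15 and 42.1 CPM, a ratio of 36.4 (8.91 to 321). *Egr1* had 11 and 20 UMIs, at 6.35 and 40.1 CPM, a ratio of 6.31 (2.88 to 14.6), *Fosl2* a ratio of 3.64 (1.91 to 6.95) and *Jun*, at 56.6 and 156 CPM, a ratio of 2.76 (2.03 to 3.76). *Jund* was at 58.3 and 102 CPM, a ratio of 1.75. With nuclei weighted equally these ratios became 75.8, 21.9, 4.94, 2.94 and 2.05. Here the FOS and JUN genes were on the same side of 1, and 4 of 5 measured members lay at least 2-fold higher, where 10.2% of all genes did, and 0 lower, where 11.1% did. Of the wider list 13 of 30 measured genes lay higher and 2 lower in these cells. Their fibroblast list was at 4190 and 4559 CPM in control and CKO (5 of 5 genes, *Col1a2* leading), the astrocyte list at 1038 and 1338 CPM (5 of 5, *Gja1* leading) and the choroid plexus list at 1403 and 934 CPM (4 of 4, *Ttr* leading). The endothelial list was at 957 and 583 CPM (9 of 9, *Cdh5* leading) and the pericyte list at 1206 and 801 CPM (*Atp13a5* leading, 8 of 8 and 7 of 8, with *Kcnj8* at 0 in the CKO). Some lists are left out here, and among them are lists that rose by a larger factor than any of these. The control held 1227 of these nuclei with a median of 879 UMIs and the CKO 419 with 582, and the part of these differences in the ratios was not tested. Scaling by TMM shifted each log2 ratio here by -0.22.

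Cluster CP_6 had 1 of 3 measured members higher, where 3.82% of all genes did. That gene was *Fosl2*, at 6.67 and 24.1 CPM, a ratio of 3.62 (2.05 to 6.52). *Jun* in the same cluster was at 95.4 and 57.8 CPM, a ratio of 0.606 (0.467 to 0.777), and *Jund* at a ratio of 1.06. As in ECs, *Fosl2* and *Jun* lay on opposite sides of 1. The choroid plexus list moved with them, from 3452 CPM in the control to 1783 CPM in the CKO (4 of 4 genes, *Ttr* leading at 2838 and 1188 CPM), where it was level with the MG list at 1791.05 CPM (5 of 5, *Apoe* leading). Median depth was 1307 and 869 UMIs. The part of markers and depth in these ratios was not tested.

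Neurons gave mixed values, at unequal depth. Median UMIs per nucleus were 5004 in control and 2314 in CKO nuclei of Glut_0, 3495 and 1408 in GABA_9, and 4669 and 1804 in Glut_11, and the part of depth in the ratios was not tested. In cluster Glut_0, *Fos* was at 2.93 CPM (34 UMIs) and 1.09 CPM (9 UMIs), a ratio of 0.371 (0.157 to 0.790), which became 0.556 with nuclei weighted equally. Of Glut_0 nuclei thinned to 500 UMIs, 1 of 2066 control and 2 of 2926 CKO nuclei had a *Fos* UMI, too few to show this difference. *Junb* had 38 UMIs in control Glut_0, at 3.27 CPM (2.31 to 4.49), and 0 in the CKO, where 3 counts would be 0.362 CPM. The control value is 9.03-fold that limit. This is no lower bound, since the control has its own counting error and background RNA had been subtracted. In thinned Glut_0 nuclei, 3 of 2066 control and 0 of 2926 CKO nuclei had a *Junb* UMI, with overlapping intervals. *Fosb* went the other way, with 9 and 24 UMIs and a ratio of 3.74 (1.68 to 9.14), as did *Egr3* at 1.77 (1.38 to 2.28), while *Egr1* was at 0.536 (0.421 to 0.678). The thinned share with an *Egr1* UMI was 1.40% (0.942 to 2.01, exact binomial) in control and 0.478% (0.262 to 0.801) in CKO Glut_0 nuclei, without overlap. Those of *Fosb* and *Egr3* overlapped. In cluster Glut_1 the *Fos* ratio was 0.671 (0.211 to 1.86), from 14 and 6 UMIs. In Glut_0, 1 of 5 members lay higher, where 3.27% of all genes did, and 2 lower, where 10.6% did.

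*Egr1* was also low in CKO nuclei of clusters GABA_9 and Glut_11. In GABA_9 it had 61 control and 2 CKO UMIs, a ratio of 0.0607 (0.00718 to 0.229), and was 1 of 2 members measured there, where 5.78% of all genes lay lower. *Egr3* was at 0.555 (0.232 to 1.199) in the same cluster. With nuclei weighted equally the 2 ratios became 0.0185 and 0.200. In Glut_11 *Egr1* was at 0.484 (0.248 to 0.886) and *Fos* at 2.20 (0.871 to 5.69), which are 1 of 3 lower and 1 of 3 higher, where 12.2% and 3.5% of all genes were, and with nuclei weighted equally the 2 ratios became 0.548 and 4.77. In thinned Glut_11 nuclei, 3 of 459 control and 1 of 518 CKO nuclei had an *Egr1* UMI, and 2 of 459 and 2 of 518 a *Fos* UMI, with overlapping intervals.

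Cluster Glut_20 is named by its label only, because markers of several cell types were high in it. The highest of its lists is not among those given here. The neuron list was at 2936 and 2720 CPM in control and CKO (6 of 6 genes, *Snap25* leading), the choroid plexus list at 2843 and 2366 CPM (*Ttr* leading, 3 of 4 and 2 of 4, with *Folr1* at 0 in both) and the astrocyte list at 1723 and 2180 CPM (*Slc1a2* leading, 4 of 5 and 5 of 5). *Fos* had a ratio of 5.63 (2.49 to 13.5) and *Junb* of 4.61 (1.86 to 12.1), 2 of 6 members higher where 8.67% of all genes were, with *Egr1* at 1.07 and *Jund* at 1.06. With nuclei weighted equally, *Fos* became 4.74 and *Junb* 8.62. The pericyte list was at 159 and 275 CPM (7 of 8 each, *Rgs5* leading) and the smooth muscle list at 32.3 and 112 CPM (4 of 4 and 3 of 4, with *Myh11* at 0 in the CKO), while the endothelial list was level, at 370 and 371 CPM (9 of 9 and 8 of 9, with *Erg* at 0 in the CKO). Median depth was 963 and 666 UMIs, and the part of markers and depth in these ratios was not tested.

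Over the brain cell types, 42 combinations had at least 20 UMIs, of which 11 lay at least 2-fold higher and 4 lower, beside 5.39% and 9.22% of all genes in the 10 cell types with a measured member.

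On the GRCm39 genome the members lie on 8 chromosomes, 3 of them on chromosome 8. *Fos* spans chr12:85520658-85524047, *Fosb* chr7:19036621-19043976, *Fosl2* chr5:32292707-32315186, *Jun* chr4:94937271-94940459 and *Atf3* chr1:190902493-190950241. *Jund* spans chr8:71151599-71153265, *Ier2* chr8:85387960-85389483 and *Junb* chr8:85701113-85705359, and the EGR genes chr18:34992876-34998049 for *Egr1* and chr14:70314350-70320063 for *Egr3*. *Jun*, *Junb*, *Jund* and *Ier2* have a single exon, so their nuclear transcripts carry no intron. *Junb* overlaps *Prdx2* and *Jun* overlaps *Junos*, each on the other strand.

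Side by side, *Fos*, *Fosl2* and *Egr1* had at least 20 UMIs and a higher CKO value in brain ECs and in the cells labelled glia, and their CKO medians in retinal MG also lay above the control, where edgeR called 0 of the 7 members tested. *Fos* was at 23.0 against 0.662 CPM in MG (adjusted p = 0.324), at 5.55 against 2.41 CPM in ECs and at 42.1 against 1.15 CPM in the cells labelled glia, but among the brain cell types with at least 20 UMIs its CKO value was the lower one in vSMCs, Glut_0 and Glut_1. No test across the tissues was made, since each brain genotype has 1 library.

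*Fos* and *Junb* varied together over the retinal sums, so their promoters are shown (RefSeq, GRCm38.p6, 250 bases before to 50 after the gene start), from chr12:85473640-85473939 on the plus strand and chr8:84978699-84978998 on the minus strand. Capitals mark TGACG, the core of the cAMP response element that CREB binds. It was found at 2 places in the *Fos* window and at 1 in that of *Junb*.
*Fos*: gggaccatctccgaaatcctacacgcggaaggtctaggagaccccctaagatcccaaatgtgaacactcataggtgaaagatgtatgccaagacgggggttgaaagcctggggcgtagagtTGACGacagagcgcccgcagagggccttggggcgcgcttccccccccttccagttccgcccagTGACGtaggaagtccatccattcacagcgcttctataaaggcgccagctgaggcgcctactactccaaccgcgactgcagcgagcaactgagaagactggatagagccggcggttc
*Junb*: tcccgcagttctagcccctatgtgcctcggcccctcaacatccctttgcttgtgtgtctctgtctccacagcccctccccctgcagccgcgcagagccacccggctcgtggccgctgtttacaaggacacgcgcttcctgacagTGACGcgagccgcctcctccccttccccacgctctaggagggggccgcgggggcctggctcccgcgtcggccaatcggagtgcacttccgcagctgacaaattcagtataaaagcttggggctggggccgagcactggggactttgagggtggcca

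Over both strands of 32851 promoters, TGACG was found in 20.8%, and in 4 of the 7 members with a promoter in the table, *Fos*, *Fosb*, *Junb* and *Atf3*. The full cAMP response element TGACGTCA, which contains it, was found in 1.79% of promoters, the AP-1 site TGANTCA in 7.81% and the CArG box of serum response factor in 1.63%, and in 0 of the 7 each. The EGR site GCGGGGGCG was found in 2.91% of promoters and in *Fosb* and *Fosl2*. *Egr1*, *Egr3* and *Ier2* were not in the table. A match, or the lack of one, describes these letters in these windows and no more, and sites farther from the gene start were not searched.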

How the data were processed

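The authors deposited whole UMI counts per gene and nucleus, made with PIPseeker 3.3.0 on GRCm39 and CellBender 0.3.2, with doublets removed by SOLO and, by hand, mixed nuclei and whole clusters in which several nuclei came from CKO replicates 4 and 5. Cell type, batch and kit are their labels. UMIs were summed per cell type and library, with at least 20 nuclei. Libraries were the replicates. Retinal sums were tested with edgeR 4.0.16 (TMM, quasi-likelihood, filterByExpr, kit as covariate; Benjamini-Hochberg over all genes of a cell type, threshold 0.05) and with DESeq2 1.42.0 in R 4.3.3. Both were also run on simulated counts with a fixed spread and no batch effect, which does not measure their power for these genes. Only symbols with UMIs in all 3 batches entered. Brain ratios, with 1 library per genotype, have exact conditional binomial intervals and no test, for genes with at least 20 UMIs. Intervals and limits of 3 counts cover counting error only. Promoters are from RefSeq, positions from GENCODE M39. Genes named are the 10 members, list genes called by edgeR in a retinal cell type, the 5 highest and 5 lowest list ratios in ECs, and the 5 genes most like *Fos* and *Egr1*, with *Ccn1* added after its value was seen. Likeness was computed on log2(CPM + 5). Members and lists were chosen with earlier results of these data known. Alternatives covered batch, kit, libraries, depth, scaling, filters, weighting and thresholds. Normalized values and UMAP coordinates were left out. Sums, intervals and plots were made with matplotlib 3.10.9, scipy 1.17.1, numpy 2.4.6 and pandas 2.3.3 under Python 3.11.15.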

Additional observations from a re-analysis of the deposited data

Results flagged for a closer look

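In 4 of 48 groups of 10 CKO libraries, the gap from 1 library to the nearest one was large against the whole range. The rule uses CPM only and takes no account of counting error, so these gaps are not shown to exceed it. Chance gives about 1 in 20 groups. *Junb* in glycinergic amacrine cells was at 12.6 CPM in CKO replicate 6, the next library being at 6.57 CPM. *Egr1* in horizontal cells was at 27.6 CPM in the same replicate, the next at 14.8 CPM. *Jun* in immune cells was at 93.0 CPM in CKO replicate 4, the next at 35.7 CPM. Replicate 4 has 104 nuclei, with 4 UMIs of all 10 genes together. *Jun* in rod bipolar cells was at 11.3 CPM in CKO replicate 7, the next at 6.69 CPM. Over the 10 libraries, *Jun* had 46 UMIs in immune cells and 78 in rod bipolar cells.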

How the results depend on the processing

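Under 21 of the 22 alternative settings of the retinal test, 0 members were called, and without a filter on low counts 1 was, *Fos* in Müller glia; more sparse genes were then tested. The number of brain combinations at least 2-fold higher, 11, became 7 with nuclei of at least 1000 UMIs, where fewer combinations had 20 UMIs, 18 at a ratio of 1.5 and 5 at a ratio of 4. The number lower, 4, became 7 with nuclei weighted equally (the cause was not tested), 7 at a ratio of 1.5 and 2 at a ratio of 4. In ECs the 2 higher became 3 with nuclei weighted equally, 3 at a ratio of 1.5 and 1 at a ratio of 4. Of the other values, 216 kept their side of the threshold and stayed near the main value, 7 moved and 1 came to pass the threshold. Among the 10 brain cell types with a measured member, TMM scaling shifted the log2 ratios by more than 0.1 in ECs (-0.10), vSMCs (-0.17), Glut_20 (-0.20), the cells labelled glia (-0.22) and Glut_17 (0.11).

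The single control retina limits every comparison of genotypes. Its Müller glia hold 1 *Fos* UMI, so that level is known within a wide interval. Brain ratios rest on 1 library each, and small ratios on few UMIs. With 20 UMIs as the limit, 42 combinations were read.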
